A study of Homo sapiens with 7 samples.

Results

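The genes that encode the protein subunits of the cytosolic ribosome were examined for occupancy by 6 transcription regulators in a B-cell lymphoma line. They were taken from the RefSeq annotation of GRCh38.p14 as protein-coding genes on chromosomes 1 to 22 and X whose symbol is RPL or RPS followed by a number, or RPLP0, RPLP1, RPLP2 or RPSA. RPS6K kinase genes and symbols with a letter L after the number were left out. The rule found 81 of 19974 protein-coding genes. Of these, 46 encode proteins of the large subunit and 31 proteins of the small subunit. The other 4 are 3 read-through genes, RPS10-NUDT3, RPL17-C18orf32 and RPL36A-HNRNPH2, which share an end and its peaks with RPS10, RPL17 and RPL36A, and RPS19BP1, whose product binds RPS19 and is not a ribosomal protein.

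Every growing cell needs equal amounts of the ribosomal proteins, which are made in the cytoplasm, carried to the nucleolus and assembled there with ribosomal RNA. Their genes are among the most transcribed of the genome, have short introns that often hold small nucleolar RNAs, and begin transcription within a run of pyrimidines, the 5′ terminal oligopyrimidine (TOP) tract, through which translation of the mRNA is controlled by mTOR. The octamer ATGCAAAT is the DNA element bound by the POU factors OCT1 (POU2F1, present in most cells) and OCT2 (POU2F2, enriched in B cells), and OCA-B (POU2AF1) is a lymphoid coactivator that joins them there. MED1 is a subunit of Mediator, which links enhancers to RNA polymerase II, and CREBBP and EP300 are related histone acetyltransferases.

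The data came from ChIP-seq of OCI-Ly7 cells, an established line of diffuse large B-cell lymphoma grown in suspension without any treatment named in the labels. There was 1 library for each of OCT1, OCT2, OCA-B, MED1, EP300 and CREBBP, each called against the same input library. With 1 library per factor nothing below has a replicate check or a test, and every value is a description of these libraries, set where possible beside the same value over all protein-coding genes. Fold means the enrichment over input at a peak summit as the authors' peak caller gave it. The libraries differ in depth, in the treatment of duplicate tags and in antibody, so a fold orders genes within its own list and does not rank factors.

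The libraries held 12357450 to 27885791 tags after filtering, and the lists 23571 (OCT1) to 82569 (EP300) peaks. As a check of the cell label, the B-cell genes CD79A, CD79B, MS4A1, PAX5 and BCL6 had peaks within 1 kb of a gene end in all 6 lists, except that PAX5 had no OCT1 peak. Among 5 T-cell and liver genes, CD8A, ALB and APOA1 had none, CD3G had an OCT1 peak only, and CD3E had peaks in all lists except OCT1 with an EP300 fold of 38.9.

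Promoter sequence from RefSeq (GRCh38.p14, 250 bases before to 50 bases after the first listed start) was matched by gene for 64 of the 81 genes, and 4 stretches of 270 bases are shown that carry the contrasts described below. RPL11 (chr1:23691529-23691798, plus strand) had the highest OCT1 fold, RPL27 (chr17:42998169-42998438, plus strand) the highest OCA-B fold among genes with an entry, and RPS26 (chr12:56041668-56041937, plus strand) the highest MED1 fold. RPS23 (chr5:82278335-82278604, minus strand) was the only 1 with an octamer. Each runs 5′ to 3′ and holds 250 bases before the start and the first 20 bases from it. Capitals mark the octamer, the ETS-factor motif CCGGAAG on either strand, and a run of 8 or more pyrimidines that reaches into the 10 bases before or the first 15 bases from the start.
RPL11: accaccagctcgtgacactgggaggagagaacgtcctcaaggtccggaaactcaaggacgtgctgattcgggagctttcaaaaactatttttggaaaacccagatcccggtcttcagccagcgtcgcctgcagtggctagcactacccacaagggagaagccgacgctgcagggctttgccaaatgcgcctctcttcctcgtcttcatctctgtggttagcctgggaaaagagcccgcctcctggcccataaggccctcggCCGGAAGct
RPL27: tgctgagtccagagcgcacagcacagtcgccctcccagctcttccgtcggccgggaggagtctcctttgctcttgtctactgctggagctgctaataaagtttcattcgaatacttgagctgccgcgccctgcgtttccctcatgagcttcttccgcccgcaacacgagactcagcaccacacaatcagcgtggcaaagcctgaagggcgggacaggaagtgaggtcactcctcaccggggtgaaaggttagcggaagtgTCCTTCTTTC
RPS26: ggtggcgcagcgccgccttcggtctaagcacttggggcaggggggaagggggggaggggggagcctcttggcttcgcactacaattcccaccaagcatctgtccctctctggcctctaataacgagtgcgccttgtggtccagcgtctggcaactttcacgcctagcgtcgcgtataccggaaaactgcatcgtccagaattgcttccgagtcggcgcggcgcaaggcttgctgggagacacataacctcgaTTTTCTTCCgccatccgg
RPS23: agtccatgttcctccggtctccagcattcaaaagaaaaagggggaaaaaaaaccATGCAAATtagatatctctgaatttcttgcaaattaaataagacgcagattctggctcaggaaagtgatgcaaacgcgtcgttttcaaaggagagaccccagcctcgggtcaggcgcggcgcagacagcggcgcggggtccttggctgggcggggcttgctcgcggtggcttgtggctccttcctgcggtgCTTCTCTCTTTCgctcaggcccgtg
The gene with the highest OCT1 fold thus held no octamer in its window and had an ETS motif just after its start. Its OCT1 summit lay at -277 bp from the start (negative is upstream), outside that window. The sequence at this summit was therefore not searched for motifs. The gene with the octamer had an OCT1 fold in the lower part of the range (below).

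Nearly all ribosomal protein genes were occupied. A peak lay within 1 kb of a gene end at 79 of 81 genes for OCA-B (97.5%, against 46.2% of all protein-coding genes) and at 72 for OCT2 (88.9% against 40.9%). OCT1 had a peak at 76 (93.8% against 41.9%), although its list was the shortest. MED1 was found at 67 (82.7% against 33.7%), CREBBP at 59 (72.8% against 31%) and EP300 at 75 (92.6% against 45.5%). All 6 lists had a peak at 52 of the 81 genes (64.2%), against 21.8% of all protein-coding genes. No ribosomal protein gene was without a peak of any list, while 44.0% of all protein-coding genes were.

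The counts depended on the length of the lists. Each list was cut down to its 23571 strongest peaks, as many as OCT1 had. The counts then fell to 40 genes for OCT2 (49.4%, against 19.1% of all genes), 36 for CREBBP (44.4% against 19.1%) and 23 for EP300 (28.4% against 17.5%). All 6 lists were left at 17 genes (21.0% against 9.32%). OCA-B fell less, to 71 (87.7% against 30.6%), and MED1 to 54 (66.7% against 23.9%). In 41 of the 77 genes without the read-through genes and RPS19BP1, an end of another protein-coding or lncRNA gene lay within 1 kb, so that some peaks cannot be assigned to a single gene. Counting only peaks away from other genes left 53 genes with OCA-B, 44 with OCT1, 44 with OCT2, 49 with EP300, 42 with MED1 and 38 with CREBBP, against 28.1%, 21.6%, 25.9%, 28.9%, 20.1% and 18.96% of all genes under the same count. The shares of the 81 genes were then 65.4%, 54.3%, 54.3%, 60.5%, 51.9% and 46.9%, and 27 (33.3%) kept all 6 lists against 10.3% of all genes. The presence of a neighbour was not accompanied by much more occupancy, since all 6 lists were found at 27 of the 41 genes with a neighbouring end (65.9%) and at 22 of the 36 without (61.1%).

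**Figure D1:**
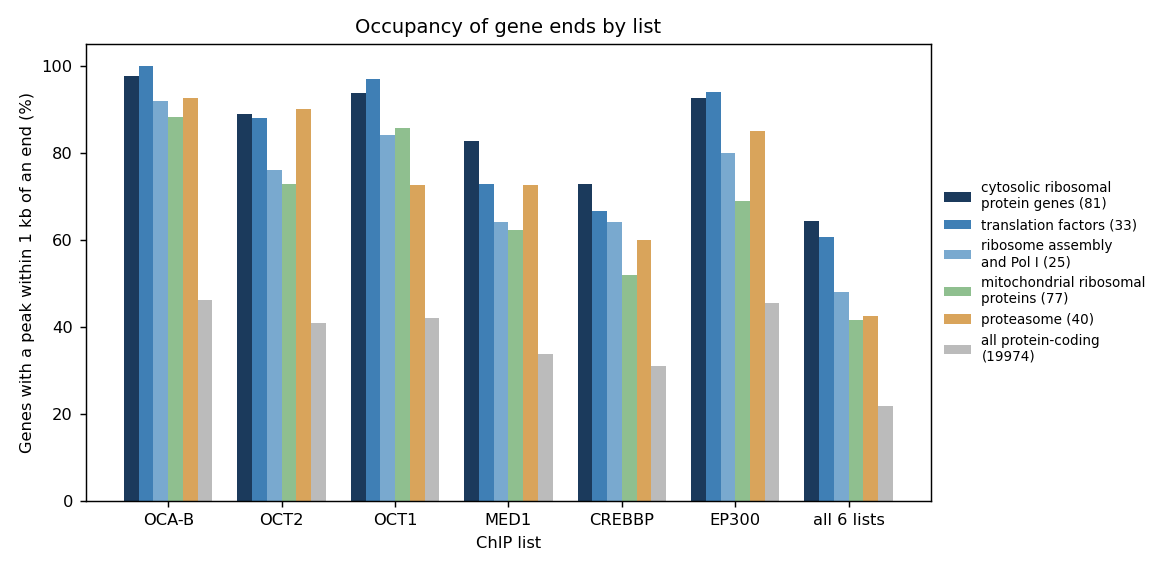
Share of genes (%) with a peak within 1 kb of either gene end in each ChIP list and in all 6 lists, for the 81 cytosolic ribosomal protein genes, 4 related gene lists and all 19974 protein-coding genes. The ribosomal protein bars lie at 72.8% to 97.5% in the single lists, each above the grey bar of all genes.

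Other housekeeping genes were occupied in the same range for some factors. The plot of occupied shares by list sets the ribosomal protein genes beside 4 related lists. Of 33 translation initiation and elongation factors, such as EEF1A1 and EIF4A1, 33 had an OCA-B peak and 20 (60.6%) a peak of every list. Of 25 genes for ribosome assembly and RNA polymerase I, 12 (48%) were in all 6 lists. Mitochondrial ribosomal proteins, which build a separate ribosome with bacterial ancestry, were in all 6 lists at 32 of 77 genes (41.6%), and proteasome subunits at 17 of 40 (42.5%). Translation factors thus came near the ribosomal protein genes in these shares. FAU and RACK1, cytosolic ribosomal proteins with other names, were in all 6 lists. Of the 8 paralogs that the rule leaves out, 4 were in all 6 lists, and RPL10L, a testis paralog of RPL10, was in none.

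Genes of both subunits were occupied. All 6 lists were present at 31 of 46 large-subunit genes (67.4%) and 18 of 31 small-subunit genes (58.1%). OCA-B was found at 44 large-subunit and 31 small-subunit genes. The median highest fold at large and small subunit genes was 6.57 and 5.17 for OCT1, 7.98 and 7.05 for OCT2, 10.2 and 9.57 for OCA-B, and 7.68 and 5.98 for MED1. For CREBBP these medians were 7.13 and 6.06, and for EP300 5.56 and 6.49. EP300 was thus the only list with the higher median at the small subunit.

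The median OCA-B fold at these genes lay above that of all occupied genes by more than the median of any other factor did. The highest OCA-B fold at a gene end had a median of 10.1 (quartiles 7.09 to 12.5, range 3.41 to 27.9), against a median of 7.61 over all 9237 protein-coding genes with an OCA-B peak. For MED1 the median was 7.15 (range 3.21 to 21.1) against 6.08, and for OCT2 7.82 (range 2.86 to 19.8) against 7.25. The other medians lay below those of all genes. They were 5.82 (range 2.90 to 18.7) against 6.64 for OCT1, 6.84 (range 3.03 to 21.8) against 7.06 for CREBBP and 6.26 (range 2.90 to 28.9) against 6.67 for EP300. Some related gene lists also lay above the all-gene medians. The median OCA-B fold was 9.29 for proteasome subunits, 8.86 for translation factors, 8.08 for ribosome assembly and 7.06 for mitochondrial ribosomal proteins. For MED1, translation factors had a median of 7.55, above that of the ribosomal protein genes. It was 6.83 for ribosome assembly, 5.73 for proteasome subunits and 5.46 for mitochondrial ribosomal proteins. Each ribosomal protein gene's peak was also placed within its own ChIP list. The median percentile by fold was 82.1 for OCA-B, 71.8 for MED1, 66.8 for OCT2, 58.5 for EP300, 53.0 for OCT1 and 52.0 for CREBBP. Among the strongest 10% of their list were 14 genes for OCA-B, 7 for MED1, 4 each for OCT2 and OCT1, 2 for EP300 and 0 for CREBBP. In the top 1% there was a single gene, RPS19BP1 in the OCA-B list. These ranks set a gene's highest peak against all peaks of its list, distal ones included. They were not computed for other occupied genes, so they do not compare the ribosomal protein genes with other genes. The median width of these highest peaks was 482 bp for OCA-B against 295 bp over the whole list and 454.5 bp for OCT1 against 319 bp. It was 346 against 328 bp for CREBBP and 364 against 341 bp for EP300. The widths too set a gene's highest peak against all peaks of its list, so they do not compare these genes with other genes.

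**Figure D2:**
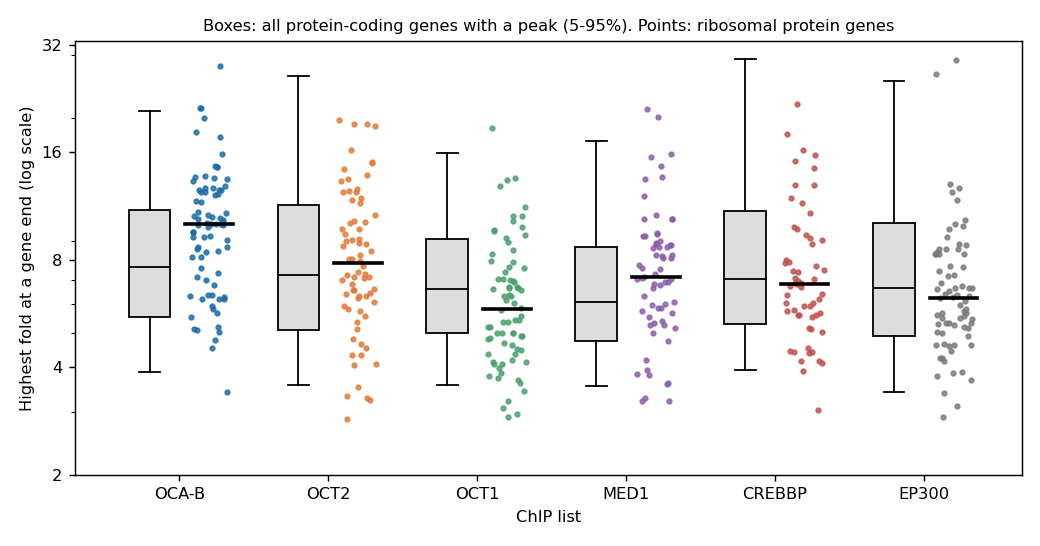
Highest fold over input within 1 kb of a gene end (log axis) by ChIP list. Grey boxes give the quartiles and whiskers the 5th to 95th percentile of all protein-coding genes with a peak, points are ribosomal protein genes and thick lines their medians, which lie above the box's own line for OCA-B (10.1 against 7.61) and below it for OCT1 (5.82 against 6.64).

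The plot of fold by list shows that few ribosomal protein genes passed the 95th percentile of all occupied genes. The single genes behind these distributions are given next by role, with the gene in its RefSeq position. They are shown together in the map of folds by gene.

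RPL3, a core protein of the large subunit near the peptidyl transferase centre (chr22:39312882-39319623, minus strand), was the gene that stood high in every list. Its folds were 9.68 for OCT1, 18.9 for OCT2, 17.6 for OCA-B, 15.5 for MED1, 12.7 for EP300 and 14.4 for CREBBP. Its lowest percentile in any list was 79.9, in CREBBP, the highest such minimum of the 52 genes found in all lists. The strongest summit lay at -149 to -272 bp from the start (negative is upstream) in all 6 lists, and OCA-B, OCT2, MED1, CREBBP and EP300 had a second summit 458 to 633 bp downstream. OCT1 had the upstream summit alone.

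RPL11 and RPL5 bind the 5S ribosomal RNA, and when ribosome assembly is disturbed they bind MDM2 and stabilise p53. RPL11 (chr1:23691779-23696835, plus strand) had folds of 18.7 for OCT1, 14.3 for OCT2, 12.6 for OCA-B, 6.65 for MED1, 5.56 for EP300 and 5.96 for CREBBP. Its OCT1 fold was the highest of the 81 genes and placed the peak at percentile 96.6 of the OCT1 list. RPL5 (chr1:92831986-92841924) had lower folds of 7.88 for OCT1, 3.52 for OCT2, 6.36 for OCA-B, 3.92 for MED1 and 4.44 for EP300, and no CREBBP peak. The pair thus differed most in OCT2 and OCT1 among the lists with a peak at both.

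The P-stalk, formed by RPLP0, RPLP1 and RPLP2, recruits elongation factors to the large subunit. RPLP0 had folds of 6.57 for OCT1, 10.7 for OCT2, 10.1 for OCA-B, 9.02 for MED1, 11.7 for EP300 and 10.8 for CREBBP. RPLP1 was in all 6 lists too, with folds between 5.33 (EP300) and 8.78 (MED1). RPLP2 had peaks of OCT2 (4.33), OCT1 (6.38) and MED1 (5.75) only, and was 1 of the 2 genes without OCA-B.

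Among large-subunit genes with a leading OCA-B fold were RPL23 (21.3) and RPL27 (21.2). At RPL23 (chr17:38847860-38853721), whose product also binds MDM2, the other folds lay below the medians of the ribosomal protein genes, at 3.22 for OCT1, 4.34 for OCT2, 6.80 for MED1, 5.68 for EP300 and 5.93 for CREBBP. RPL27 differed from it in CREBBP (15.2), with 4.198 for OCT1, 7.70 for OCT2, 6.34 for MED1 and 7.70 for EP300. At both genes a high OCA-B fold was thus found with an OCT1 fold below the median of the ribosomal protein genes, while the OCT2 fold of RPL27 was near that median.

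Of the 81 genes, RPS12, RPL4, RPL7A, RPL3 and RPL19 had the highest OCT2 folds, and all but RPS12 are of the large subunit. RPL4 had an OCT2 fold of 19.2, RPL7A of 19.2, and RPL19 of 16.2. RPL19 also had high folds of MED1 (20.1) and CREBBP (18.02), whereas RPL7A had 5.67 for MED1 and 9.07 for CREBBP. The end of RPL7A is shared with MED22, a Mediator subunit gene, within 1 kb. RPL24 reached 14.7 for MED1 with an OCT1 fold of 2.97.

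At the small subunit, RPS6, the protein phosphorylated by S6 kinases downstream of mTOR, had folds of 3.69 for OCT1, 10.3 for OCT2, 19.97 for OCA-B, 8.91 for MED1, 8.32 for EP300 and 4.11 for CREBBP. RPS26 (chr12:56041918-56044697, plus strand), at the mRNA exit channel, led the MED1 list with 21.1 and had 16.3 for CREBBP, 11.6 for OCT2, 10.9 for OCA-B, 7.24 for EP300 and 6.06 for OCT1. RPS27 had 15.8 for MED1, 15.7 for CREBBP and 15.1 for OCT2, and its end is shared with RAB13. RPS12 had 19.8 for OCT2, from a summit at -1485 bp from its start, and 13.7 for MED1.

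RPS19, RPS24, RPS26, RPS7, RPS10, RPL5, RPL11 and RPL35A are among the genes mutated in Diamond-Blackfan anaemia, and RPS14 lies in the region lost in the 5q- syndrome. RPS19 (chr19:41860255-41872925, plus strand) had the highest EP300 fold, 28.9. That peak (chr19:41870487-41872054) lay at the 3′ end of the gene, 11519 bp from the start, and the strongest OCA-B (12.9) and OCT2 (9.47) peaks of RPS19 were at the 3′ end as well, as were those of MED1 (7.13) and CREBBP (6.84), while the OCT1 summit (6.63) lay at -348 bp. The B-cell gene CD79A (chr19:41877279-41881372), with an EP300 fold of 24.3, lies beyond that 3′ end. Which of the 2 genes these peaks belong to was not tested. RPS7 had no OCT1 and no CREBBP peak, and RPS10 had no MED1 and no CREBBP peak. RPS14 had a fold of 13.5 for OCA-B and 5.00 to 6.88 in the other lists. RPS24 and RPL35A were in all 6 lists, with folds of 10.4 and 8.71 for OCA-B and 5.86 and 3.44 for OCT1. Each of the genes named here had OCA-B, OCT2 and EP300 peaks, and they differed in OCT1, MED1 and CREBBP. They are only some of the genes of this disease and were chosen after the values were seen. Of the 81 genes, 97.5%, 88.9% and 92.6% had OCA-B, OCT2 and EP300 peaks, against 46.2%, 40.9% and 45.5% of all protein-coding genes.

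RPS19BP1, the gene that is not a ribosomal protein, held the highest OCA-B (27.9) and CREBBP (21.8) folds and the second EP300 fold (26.6) of the 81 genes. Without it and the read-through genes, the counts were 75 of 77 for OCA-B and 49 of 77 for all 6 lists, so these 4 genes did not carry the result.

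**Figure D3:**
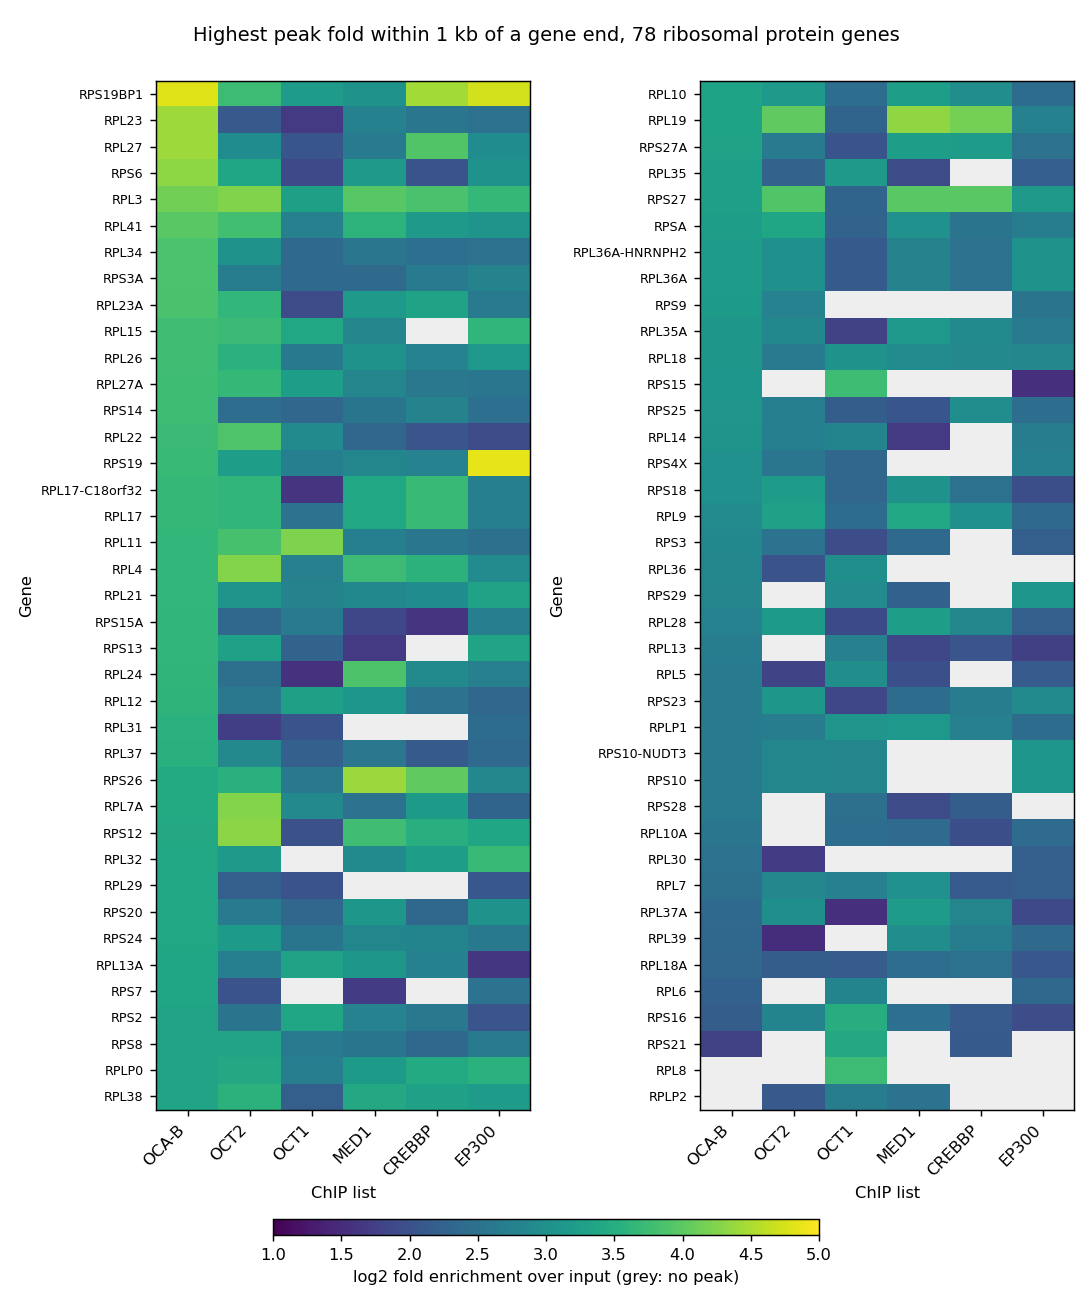
Highest fold over input within 1 kb of a gene end for 78 of the 81 genes (rows, ordered by OCA-B fold) in the 6 ChIP lists (columns), as log2 colour with grey for no peak. OCA-B is missing at RPL8 and RPLP2 alone, and the OCT1 column does not follow the OCA-B order.

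In the map of folds by gene, which is ordered by OCA-B fold, RPL8 and RPLP2 stand last because they had no OCA-B peak. RPL8, a large-subunit protein beside the peptidyl transferase centre (chr8:144789769-144792390), had an OCT1 peak with a fold of 13.3 and no peak of any other list. Among the genes in few lists, 7 were in 3. Of these, RPL6 and RPS15 had OCA-B, OCT1 and EP300, RPL30 and RPS9 had OCA-B, OCT2 and EP300, RPS21 had OCA-B, OCT1 and CREBBP, and RPL36 had OCA-B, OCT2 and OCT1, with RPLP2 as above. In 4 lists there were 8 genes, and in 5 lists 12. OCT1 was missing at RPS7, RPL32, RPL30, RPS9 and RPL39.

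RPL6 shows a limit of counting at the annotated gene ends. Its listed starts lie 7393 and 9550 bp inside the RefSeq gene, whose outer end is shared with PTPN11. At the outer ends, RPL6 had OCA-B (4.76), OCT1 (6.998) and EP300 (5.04) peaks. Within 1 kb of its listed starts its folds reached 11.0 for OCA-B, 14.4 for OCT2, 12.5 for MED1, 5.49 for CREBBP and 4.33 for EP300, and no OCT1 peak. RPL6 therefore changed from 3 lists to 5 with the start used. RPS18 and RPS9 lie in regions of chromosomes 6 and 19 that also have alternate contigs in the build, and reads shared with such copies, or with the many processed pseudogenes of this family, may have been placed elsewhere. RPS18 had peaks of all 6 lists with folds of 3.89 (EP300) to 9.14 (OCT2), and RPS9 had 9.07 for OCA-B, 6.85 for OCT2 and 5.84 for EP300.

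Of the 10 genes with the highest OCT1 fold, 5 were in all 6 lists and 5 were not. The 10 genes with the highest OCT1 fold, out of the 77 without read-through genes and RPS19BP1, included RPL11, RPS15, RPL8, RPS16, RPS21 and RPL3. MED1 was present at 6 of the 10, OCT2 at 7, CREBBP at 7, EP300 at 8 and OCA-B at 9. Of the other 62 genes with an OCT1 peak, 44 were in all 6 lists. For EP300, 6 of the 10 highest genes and 43 of the other 61 were in all 6 lists. The 10 highest genes of MED1 and the 10 highest of CREBBP were all in every list, as were 8 of 10 for OCA-B and 9 of 10 for OCT2. These sets were chosen after their values were seen. RPS16, a small-subunit protein and 1 of the 5 in all lists, had an OCT1 fold of 11.2, then 7.01 for OCT2, 4.53 for OCA-B, 5.53 for MED1, 3.85 for EP300 and 4.43 for CREBBP.

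Across genes, the folds of MED1 and CREBBP moved together, with a Spearman rho of 0.67 over the 54 genes with both peaks, against 0.68 over all protein-coding genes with both. For OCT2 rho was 0.39 with OCA-B (67 genes, against 0.52), 0.48 with MED1 (60 genes, against 0.55) and 0.46 with CREBBP (52 genes, against 0.57). For OCT1 it was 0.04 with OCT2 (63 genes, against 0.12), -0.09 with OCA-B (70 genes, against 0.08), -0.19 with MED1 (61 genes, against 0.07) and -0.20 with CREBBP (54 genes, against 0.04). Low values for OCT1 were thus also found over all genes. These values are across genes, which are not independent replicates, and the lists share 1 input library.

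Occupancy centred just upstream of the transcription start, as it did over all genes. The 64 genes with a listed start include RPL17-C18orf32 and RPL36A-HNRNPH2, whose starts are those of RPL17 and RPL36A. Summits and promoter motifs at these starts therefore count under both names. Of the 64, 63 had an OCA-B summit within 1 kb of the start (98.4%, against 44.2% of 15796 protein-coding genes with an entry). OCT2 and OCT1 each had a summit at 58 (90.6%, against 37.1% and 42.7%), MED1 at 54 (84.4% against 30.7%), CREBBP at 41 (64.1% against 27.2%) and EP300 at 60 (93.8% against 41.7%). The median position of the strongest summit was -98 bp for OCA-B (-148 bp over all genes) and -83.5 bp for OCT1 (-81 bp), where negative means upstream. It was -110.5 bp for OCT2 (-173 bp), -116 bp for CREBBP (-174 bp) and -91 bp for EP300 (-170 bp). For MED1 it was -59 bp (-199 bp over all genes), with quartiles at -220 and 537.25 bp (-420 and 412.75 bp over all genes). The strongest MED1 summit lay downstream at 25 of 54 genes (46.3%, against 36.3% over all genes).

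OCT1 differed from the other lists in the shape of its occupancy. Its strongest summit was within 150 bp of the start at 41 of 58 genes (70.7%, against 58.3% over all genes). It was so at 32 of 63 for OCA-B (50.8% against 27.96%) and 27 of 58 for OCT2 (46.6% against 21.2%). The counts were 28 of 60 for EP300 (46.7% against 20.2%) and 21 of 54 for MED1 (38.9% against 14.4%). For CREBBP it was 18 of 41 (43.9% against 18.3%). The share was thus highest for OCT1. It lay above that of all genes in every list, and by the least for OCT1. More than 1 summit within 1 kb of the start was found at 5 genes for OCT1 (8.62% of those with a summit, against 15.6% over all genes), 35 for OCA-B (55.6% against 44.6%), 32 for OCT2 (55.2% against 38.8%), 30 for EP300 (50% against 43.3%), 28 for MED1 (51.9% against 33.3%) and 19 for CREBBP (46.3% against 28.99%). Summits on both sides, each over 150 bp from the start, were found at 1 gene for OCT1 (1.72% against 4.49%), 17 for OCT2 (29.3% against 24.0%), 22 for OCA-B (34.9% against 25.9%), 17 for MED1 (31.5% against 23.8%), 21 for EP300 (35% against 28.5%) and 6 for CREBBP (14.6% against 17.4%). Several of these shares lie near those of all genes. A single OCT1 summit close to the start was also the usual form over all genes, where 58.3% of strongest OCT1 summits lay within 150 bp.

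**Figure D4:**
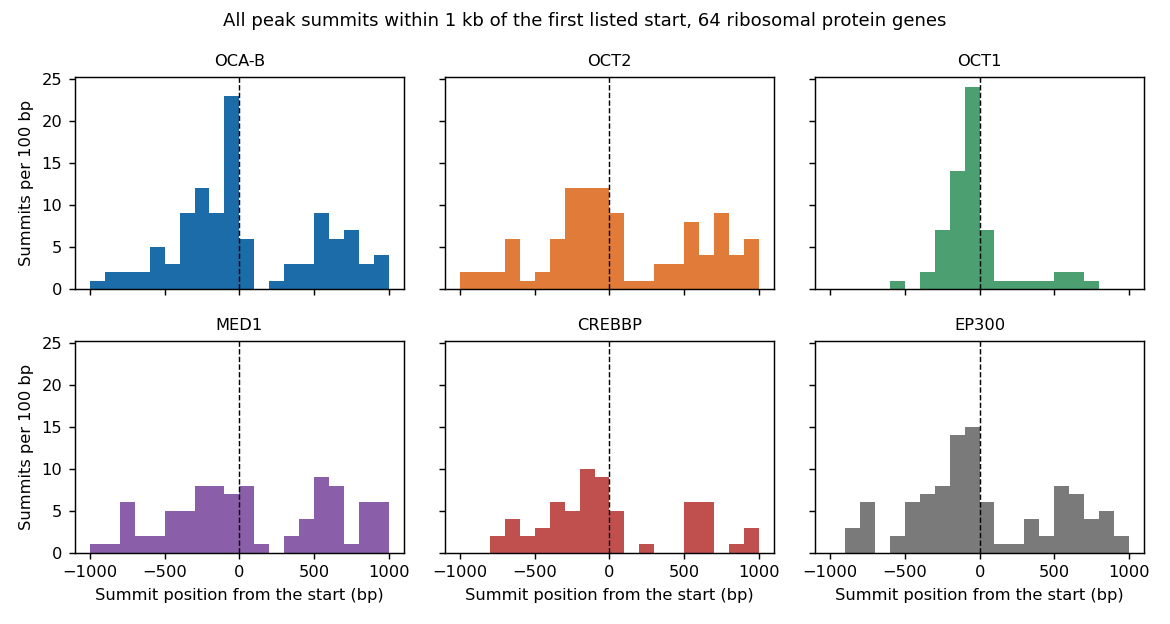
Number of peak summits per 100 bp by position from the first listed start (bp, negative is upstream, dashed line at the start) for 64 ribosomal protein genes, in 1 panel per ChIP list. OCT1 has a single cluster just upstream of the start, and the other lists have a further cluster around 500 to 1000 bp downstream.

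The plot of summit positions shows few summits from 100 to 300 bp downstream of the start, with 1 each for OCA-B, MED1 and CREBBP and 2 each for OCT2, OCT1 and EP300. From 500 to 700 bp there were 4 for OCT1, 12 for OCT2, 15 for OCA-B, 17 for MED1, 15 for EP300 and 12 for CREBBP. These summit counts by position were not made over all genes. A peak covered the start base itself at 52 of 64 genes for OCT1 (81.3%, against 31.5% of all genes), 41 for OCA-B (64.1% against 15.9%), 31 for OCT2 (48.4% against 9.61%) and 31 for EP300 (48.4% against 11.2%). MED1 covered it at 23 (35.9% against 5.67%) and CREBBP at 21 (32.8% against 5.77%). The strongest summits of different lists lay near each other, with a median distance of 29 bp between MED1 and CREBBP (40 bp over all genes), 30 bp between OCT2 and EP300 (45 bp) and 43 bp between OCA-B and OCT2 (51 bp). OCT1 summits were 84 bp from OCA-B summits, 100 bp from OCT2 summits and 216 bp from MED1 summits, against 183, 239 and 334 bp over all genes. Other pairs with MED1 were farther apart than over all genes, at 118 against 98 bp with OCA-B, 90 against 67 bp with EP300 and 76 against 61 bp with OCT2.

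The octamer was rare in these promoters, as in others. ATGCAAAT, read on both strands, was found in 1 of the 64 promoters of 300 bases (1.56%), RPS23, and in 1.71% of all 15796. The variant ATGCTAAT was found in 0 of 64 and in 0.570% of all. Over all protein-coding promoters, the 270 with an octamer had a summit within 1 kb at 42.6% against 42.7% of those without for OCT1, 45.2% against 44.2% for OCA-B and 49.3% against 36.8% for OCT2. Their folds were higher, with a median of 12.6 against 6.49 for OCT1, 17.4 against 6.69 for OCT2 and 17.6 against 7.38 for OCA-B.

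At RPS23, a protein of the decoding centre, the octamer lies at -196 to -189 bp from the start (capitals ATGCAAAT in the sequence above). OCT2 had a summit at -198 bp with a fold of 8.71 (chr5:82278431-82278628), OCA-B at -207 bp with 6.33 (chr5:82278426-82278607) and OCT1 at -217 bp with 3.62 (chr5:82278235-82278650). The middle of the octamer was thus 6, 15 and 25 bp from these summits. MED1 and EP300 had no summit there, and their nearest upstream summits were at -433 and -490 bp. These folds were below the medians of octamer promoters given above and, for OCA-B and OCT1, below the medians of the ribosomal protein genes.

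Of the other elements, ETS, YY1 and pyrimidine motifs were more frequent in these promoters than in all promoters, and TATA, CCAAT and SP1 motifs were not. CCGGAAG, the core of many ETS-factor sites, was found on either strand in 21 of the 64 promoters (32.8%) and in 14.1% of all. AAGATGGC, the element of YY1, was found in 6 (9.38%, against 3.87%), namely RPL13A, RPL21, RPL24, RPL35A, RPS28 and RPS3. CTTTCC was found in 31 (48.4% against 26.4%). TATAAA was found in 5 (7.81% against 9.76%), namely RPL3, RPL7A, RPLP0, RPS28 and RPS3, CCAAT in 23 (35.9% against 36.3%) and the SP1 element GGGCGG in 35 (54.7% against 58.3%). A run of 8 or more pyrimidines reaching into the 10 bases before or the first 15 bases from the start was present in 53 of 64 (82.8%) and in 16.1% of all, with a median longest run of 11 against 5 bases. In the sequences above it is 12 bases long in RPS23, 9 in RPS26 and 16 in RPL27, whose last bases lie beyond the stretch shown, while the longest run of RPL11 at its listed start was 6 bases. Such matches describe the letters in these windows. The C/T letters of CTTTCC overlap the pyrimidine runs, so those counts are not separate.

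The gene bodies are short, and peaks covered a larger part of them. The median gene was 5015 bp long, against 24170.5 bp for all protein-coding genes. With 1 kb added on each side, a median of 957 bp was covered by OCA-B peaks against 302 bp for all genes, 878 against 276 bp by OCT2 peaks and 520 against 192 bp by OCT1 peaks. MED1 peaks covered 1033 bp, CREBBP 521 bp and EP300 908 bp, where the medians of all genes were 0, 0 and 361.5 bp. Small nucleolar RNA genes, 60 in all, lie inside 29 of the 77 genes, as in RPL13A, the host of SNORD32A, SNORD33, SNORD34 and SNORD35A. All 6 lists were present at 20 of these hosts (69.0%) and at 29 of the 48 other genes (60.4%), and the median OCA-B fold was 10.7 and 9.25.

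Farther from the genes, the mean number of peaks per gene was close to that of all genes. The share of genes with such a peak, and the peaks per 100 kb of distal sequence, were higher in every list. A distal peak, with its summit over 1 kb from every protein-coding and lncRNA gene end, lay within 50 kb of 72 of 81 genes for OCA-B (88.9%, against 74.5% of all genes), 44 for OCT1 (54.3% against 51.9%) and 76 for OCT2 (93.8% against 83.4%). It did so at 65 for MED1 (80.2% against 61.8%), 64 for CREBBP (79.01% against 66.8%) and 72 for EP300 (88.9% against 80%). The mean number per gene was 1.07 against 1.25 for OCT1, 4.78 against 5.05 for OCT2, 4.43 against 3.85 for OCA-B, 3.49 against 3.06 for MED1, 3.53 against 3.22 for CREBBP and 5.91 against 5.73 for EP300. The windows differ in size, since short genes have shorter windows and crowded neighbourhoods leave less distal sequence, with a median of 90.5 kb against 110.3 kb. Per 100 kb of distal sequence there were 4.88 OCA-B peaks against 2.58, 5.26 OCT2 peaks against 3.38, 1.18 OCT1 peaks against 0.839, 3.85 MED1 peaks against 2.05, 3.89 CREBBP peaks against 2.16 and 6.51 EP300 peaks against 3.84. The comparison with all genes thus turned for OCT2 and OCT1 when distal sequence was counted. For the other lists the excess became larger. Summed peaks were divided by summed sequence, so genes with long windows weigh more in these values.

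**Figure D5:**
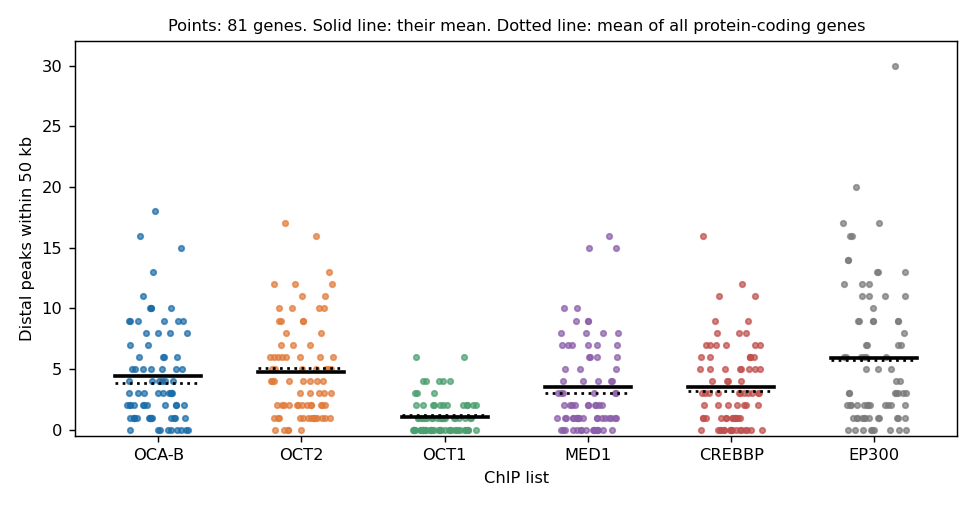
Number of distal peaks within 50 kb of each of the 81 genes (points) in the 6 ChIP lists, with the mean of these genes as a solid line and the mean of all protein-coding genes as a dotted line. The 2 lines lie near each other in every list, and the highest point is the 30 EP300 peaks of RPS10-NUDT3.

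The plot of distal counts shows a wide spread between genes. RPS29, a small-subunit protein, had 16 distal OCT2 peaks with 4 for OCT1, 18 for OCA-B, 15 for MED1, 13 for EP300 and 11 for CREBBP. RPL19 had 13 for OCT2, 16 for OCA-B and 15 for MED1. RPS19 and RPL36A had 12 for OCT2 each. RPL36A lies beside BTK, the kinase of B-cell receptor signalling, and CD79A lies within 50 kb of RPS19. RPS10-NUDT3, a long read-through gene, had 17 for OCT2. In contrast, RPL26, RPL29, RPL37A and RPS9 had no distal OCT2 peak, and RPS23 had 2 for OCT2 and none in any other list. Each of the 81 genes had a distal peak of at least 1 list.

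Distal OCT2 peaks near these genes more often had OCA-B than elsewhere, at 224 of 350 peaks (64%) against 52.0% of all 60308. Read from the other side, 66.3% of 332 distal OCA-B peaks near the genes overlapped OCT2 against 82.1% of all. Of the 81 distal OCT1 peaks near the genes, 55.6% overlapped OCT2 against 78.2% of all distal OCT1 peaks. The median fold of the distal peaks near these genes was 4.55 for OCT1, 5.50 for OCT2 and 5.22 for OCA-B, against 5.40, 5.91 and 5.49 over all distal peaks.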

How the data were processed

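OCI-Ly7 cells gave 6 ChIP libraries and 1 input library. Per the submitters' processing notes, the tools were MACS2 2.1.1.20160309, SAMtools 1.3.1, Bowtie2 2.3.2.2 and CASAVA 1.8.2, with build hg38, and aligner settings are not given in the sources used here. Per the file headers, each ChIP was called against the same input in narrow mode, with a q threshold of 0.05, a bandwidth of 300, 51-bp tags and 1 tag kept per position. The headers give a redundant rate of 0 in the CREBBP and MED1 libraries and of 0.08 to 0.2 in the rest. The deposited lists give the pileup signal at each summit, the −log10 p-value and −log10 q-value, and the fold enrichment ratio over input, as computed by the authors, and none was rescaled.

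Peaks on chromosomes 1 to 22 and X were used. A gene counted as occupied if a peak touched the 1 kb on either side of one of its ends, and its fold is the highest among those peaks. RefSeq start sites and promoter bases (GRCh38.p14) were available for 64 of the 81 genes. These include RPL17-C18orf32 and RPL36A-HNRNPH2, which repeat the starts of RPL17 and RPL36A in the start, summit and motif counts. Counting used Python 3.11.15, numpy 2.4.6 and pandas 2.3.3, with figures by matplotlib 3.10.9, and the interval counting was tested on simulated data. No statistical test was run. The genes, related lists and motifs were chosen with earlier results of these data known. The text names genes with the 5 highest folds of a list, those high in or missing from lists, those with the most or no distal OCT2 peaks, those in alternate-contig regions, and, by role, further members. The role groups (5S RNA binding, P-stalk, anaemia genes) were chosen after the values were seen. Alternatives tried were a stricter q, other windows, shortened lists, peaks away from other genes and a shorter promoter. A summit was set against the first listed start. Some genes of the rule and of the lists are not reported by name here, and they stay in all counts.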

Additional observations from a re-analysis of the deposited data

How the results depend on the processing

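No paired analysis was possible because each factor had 1 library. The limits are the single library per factor, the unequal depth and duplicate handling, and the gene ends shared with neighbours. Of the alternatives tried, 40 boundary counts, 10 distal means, 18 median folds, 3 counts over all lists and 4 motif shares stayed within 1.5 times the reported value or within the spread over genes. With lists shortened to equal length, OCT2 was found at 40 genes, CREBBP at 36, EP300 at 23 and all 6 lists at 17. With peaks away from other genes only, OCT2 was found at 44 genes, OCT1 at 44, MED1 at 42, CREBBP at 38 and EP300 at 49. The mean number of distal peaks (OCA-B, OCT2, OCT1, MED1, CREBBP, EP300) was 2.84, 2.99, 0.667, 2.296, 2.22 and 3.59 within 25 kb, 7.63, 8.69, 2.04, 6.14, 6.17 and 10.7 within 100 kb, and 1.35, 1.48, 0.198, 1.26, 1.09 and 1.60 when a peak went to its nearest protein-coding gene only. Counting distance from a gene's own ends alone gave 7.10 for OCA-B and 2.72 for OCT1. These windows hold more or less sequence by construction. In the 150 bases before the start the octamer was found in 0% of the promoters (0.975% of all promoters). CCGGAAG was found in 20.3% (9.66% of all) and CTTTCC in 21.9% (13.4% of all). AAGATGGC was found in 1.56%, a single promoter (0.836% of all). With a −log10 q over 5, OCA-B was found at 77 genes (95.1%, against 41.8% of all genes) and all 6 lists at 42 (51.9% against 16.9%).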
